A study of Mus musculus with 2 samples.

Results

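The genes described are 10 that keep proteins folded in the endoplasmic reticulum (ER) or report that folding has failed, out of 14714 genes in the deposited count table. They were taken by name and not by a cut on their values, though earlier results of these data were known. They are the chaperones Hspa5, Hsp90b1 and Calr, the disulphide isomerases Pdia3 and Pdia4, and the cochaperone Sdf2l1. The others are the transcription factors Xbp1, Atf4 and Ddit3 and the ER membrane protein Herpud1. All 10 were in the table and had UMIs (unique molecular identifiers, each standing for 1 captured RNA molecule) in both libraries.

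Single-cell RNA sequencing was done on digested mouse aortas after 12 weeks of western diet. One library came from EC-iDKO/Apoe-/- mice, here the double knockout, and one from Apoe-/- mice, here the Apoe knockout, so both lacked apolipoprotein E and both had the diet. EC-iDKO stands for an inducible endothelial double knockout. From knowledge of the line, the deleted genes are the epsins Epn1 and Epn2, endocytic adaptors, which the labels do not name. The mice were a model with the deletion aimed at endothelial cells and not at the smooth muscle that made up most of the cells. Which driver expressed the Cre recombinase, how old the mice were and how many went into a library is not stated in the labels. The preparation used CD31 microbeads, which bind endothelial cells, whereas the cell type label gave all cells.

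Proteins bound for the cell surface or for secretion fold in the ER with the help of chaperones and enzymes that make disulphide bonds. When unfolded proteins accumulate, the sensors IRE1, PERK and ATF6 start the unfolded protein response: IRE1 splices Xbp1 RNA, PERK slows translation and so favours translation of Atf4, and ATF6 and XBP1 raise chaperone genes. Arterial smooth muscle, fibroblasts and activated macrophages secrete matrix or signalling proteins and use this machinery heavily. The 3' tags of these libraries count RNA and read neither Xbp1 splicing nor the translation of Atf4.

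Chaperone genes of this response are known to share a promoter motif, the ER stress element. It was searched for as CCAAT, any 9 bases and CCACG, with its variant ERSE-II as ATTGG, any 1 base and CCACG, on both strands of the RefSeq promoter windows of 300 bases (GRCm38.p6), which were found for all 10 genes. The first motif was in 3 of the 10 windows, those of Hspa5, Hsp90b1 and Calr, and in 0.119% of the 32851 windows of all genes. The second was in the window of Herpud1 alone among the 10, and in 0.0365% of all windows. Both motifs were known beforehand from genes of this response, so these shares are no test of enrichment. The letters TGACGTGG, one form of the XBP1 and ATF6 site, and TGATGNAAT, one form of the ATF4 site, were in 0 of the 10 windows and in 0.676% and 0.965% of all windows. The 250 bases before the start site are printed for the 4 genes with a motif and for Pdia3, which had no exact match. These genes were taken because their levels differed between the libraries to unequal degrees. The search took exact letters only, and near matches were not counted. The Pdia3 stretch holds CCAAT, 9 bases and CCACA, which is the first motif but for its last letter. Capitals mark the motif. In Calr, and at the second place in Hsp90b1, it lies on the opposite strand and so appears as its reverse complement.
Hspa5: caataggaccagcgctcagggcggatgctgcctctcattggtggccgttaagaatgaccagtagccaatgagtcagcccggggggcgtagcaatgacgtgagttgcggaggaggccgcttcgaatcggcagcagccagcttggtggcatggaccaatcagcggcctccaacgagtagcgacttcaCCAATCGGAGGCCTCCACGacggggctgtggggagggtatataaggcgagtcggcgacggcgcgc
Hsp90b1: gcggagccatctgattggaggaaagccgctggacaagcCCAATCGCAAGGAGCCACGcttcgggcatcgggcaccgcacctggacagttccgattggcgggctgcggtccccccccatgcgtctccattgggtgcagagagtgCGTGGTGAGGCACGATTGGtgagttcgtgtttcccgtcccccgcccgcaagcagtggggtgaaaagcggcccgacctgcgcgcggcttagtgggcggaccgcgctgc
Calr: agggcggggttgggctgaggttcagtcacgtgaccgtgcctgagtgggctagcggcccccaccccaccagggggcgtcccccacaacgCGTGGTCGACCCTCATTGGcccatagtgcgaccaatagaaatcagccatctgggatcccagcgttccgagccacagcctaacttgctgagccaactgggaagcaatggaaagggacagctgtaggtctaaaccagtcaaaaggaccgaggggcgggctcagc
Herpud1: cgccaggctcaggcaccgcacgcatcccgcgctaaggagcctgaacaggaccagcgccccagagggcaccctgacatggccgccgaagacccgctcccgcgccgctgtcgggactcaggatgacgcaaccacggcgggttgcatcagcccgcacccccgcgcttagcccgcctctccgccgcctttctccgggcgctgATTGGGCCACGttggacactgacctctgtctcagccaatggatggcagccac
Pdia3: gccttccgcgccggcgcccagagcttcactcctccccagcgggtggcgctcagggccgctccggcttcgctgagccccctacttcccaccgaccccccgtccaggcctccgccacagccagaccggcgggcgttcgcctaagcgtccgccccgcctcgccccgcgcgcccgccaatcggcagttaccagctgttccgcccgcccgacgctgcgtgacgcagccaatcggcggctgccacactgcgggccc
These stretches lie at chr2:34771840-34772089 (Hspa5, plus strand), chr10:86705445-86705694 (Hsp90b1, minus strand), chr8:84846932-84847181 (Calr, minus strand), chr8:94386179-94386428 (Herpud1, plus strand) and chr2:121413652-121413901 (Pdia3, plus strand). The motif began 65 bases before the start site in Hspa5, 212 and 107 bases before it in Hsp90b1, 162 in Calr and 52 in Herpud1. A match is a description of the letters and no measure of binding.

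The double knockout library held 5489 cells with 6853185 UMIs and a median of 769 UMIs per cell, and the Apoe knockout library 2428 cells with 13304762 UMIs and a median of 3769.5. Depth therefore differed with genotype. Values by depth group are given for smooth muscle, and values from cells thinned to 1000 UMIs for other populations where a call changed. Only 5 barcodes occurred in both libraries. Epn1 had 2 UMIs in the endothelial cluster 9 of the double knockout and 9 in that of the Apoe knockout, and Epn2 had 25 and 20 UMIs. Where the 3' tags lie relative to the deleted exons was not given, so these counts are no check of the deletion. In the deposited EC class the 9 endothelial markers summed to 4173 CPM (UMIs scaled to a population total of 1000000) in the double knockout and 1945 CPM in the Apoe knockout. In the deposited modEC class the same 9 markers summed to 131 and 68.4 CPM, with 1 at 0 in each library, so the modEC cells are given by cluster number. The deposited fibroblast class had 827 and 1783 CPM over 7 fibroblast markers but 2361 and 4682 CPM over 5 pericyte markers, and it is called by its deposited name only.

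Together the 10 genes made up 0.357% of UMIs in the double knockout and 0.305% in the Apoe knockout, with 24433 and 40559 UMIs. Across cell classes, Hsp90b1, Pdia3 and Calr had their highest levels in the fibroblast class of both libraries, and Hspa5 only in that of the double knockout. Hspa5 encodes BiP, the Hsp70 chaperone of the ER lumen. In the double knockout its level was 2547 CPM (95% counting interval 2254 to 2867) in the fibroblast class, 1723 in EC, 1357 in the immune/inflam class, 1342 in SMC (smooth muscle cells) and 1337 in modEC. The fibroblast class stood clear of the next, and no classes of adjacent rank below it differed beyond their intervals. The immune/inflam interval was wide, however, and EC (1595 to 1860) stood clear of SMC (1312 to 1373) and modEC (1254 to 1423). In the Apoe knockout its order was another one, with 1261 CPM in the immune/inflam class, 1211 in the fibroblast class, 1060 in modEC, 819 in SMC and 802 in EC. The first pair overlapped, modEC stood apart from both sides, and SMC and EC overlapped. EC thus ranked second of 5 for Hspa5 in the double knockout and last in the Apoe knockout. In both libraries its interval overlapped that of a neighbouring class. The EC class also differed in makeup, with T cell markers summing to 2.60 CPM in the double knockout and 1168 CPM in the Apoe knockout. Its macrophage markers summed to 26.0 and 1794 CPM and its adipocyte markers to 1117 and 151 CPM. The part of this makeup in the rank of EC was not tested.

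**Figure D1:**
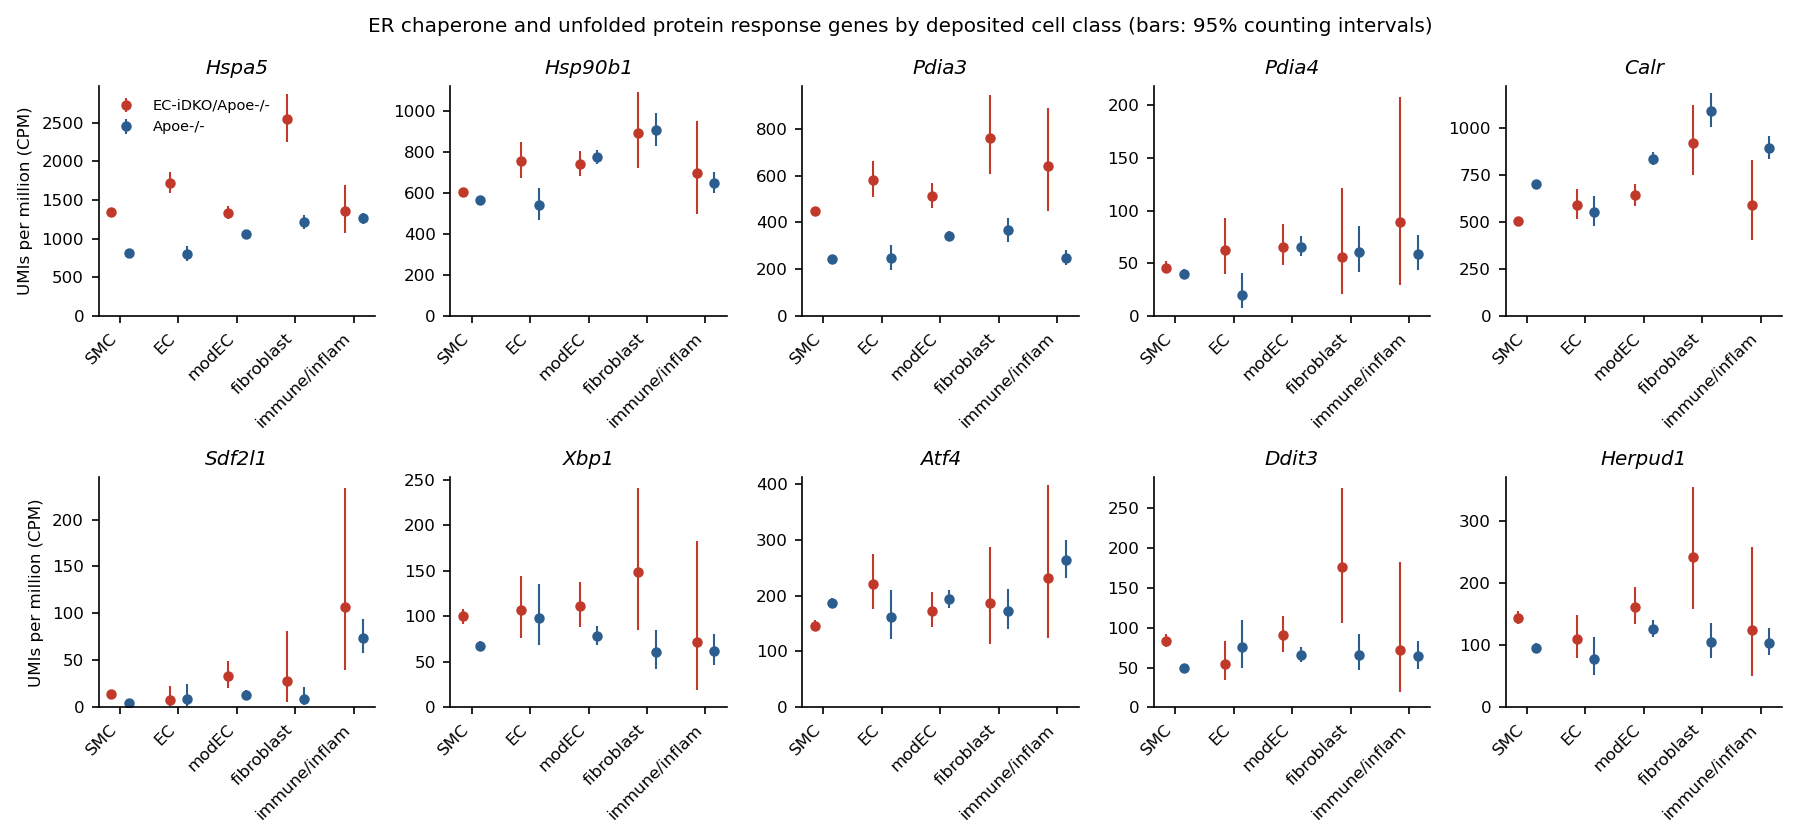
Level of each gene in CPM in the 5 deposited cell classes, double knockout (EC-iDKO/Apoe-/-, red) left of Apoe knockout (blue); points are 1 library each and bars are exact 95% Poisson intervals for counting error. Hspa5 and Pdia3 points of the double knockout lie above those of the Apoe knockout in every class, and Calr points lie below in every class but EC.

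Sdf2l1, which works with BiP's J-domain partners, had a different distribution. It was highest in the immune/inflam class of both libraries, with 107 CPM (39.3 to 233) in the double knockout and 74.0 CPM (57.4 to 94.0) in the Apoe knockout. The other 4 classes had 7.81 to 32.9 CPM in the double knockout and 4.52 to 13.2 CPM in the Apoe knockout, and only in the deeper Apoe knockout library did the immune/inflam interval stand clear. Atf4, the PERK-branch transcription factor, was also highest in the immune/inflam class, at 232 CPM (124 to 397) in the double knockout and 264 CPM (232 to 300) in the Apoe knockout. In the double knockout all neighbouring Atf4 intervals overlapped.

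Smooth muscle was compared first, since it held 4348 double knockout and 1516 Apoe knockout cells (cluster 15, which mixes deposited classes, left out). In the double knockout BiP, 1 disulphide isomerase, the Sdf2l1 cochaperone, Ddit3 and Herpud1 were higher, while Hsp90b1 was almost level and Calr was under its Apoe knockout level. With 1 library per genotype no test was possible. A gene was called higher or lower where the ratio of CPM, double knockout over Apoe knockout, was at least 1.5 in either direction with a 95% counting interval that left out 1, among genes with at least 20 UMIs. By this rule 5 of the 10 genes were higher and 0 lower, against 9.87% of 11941 genes higher and 7.67% lower. The median log2 ratio was 0.57 over the 10 genes and 0.03 over all genes tested.

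Among the lumenal chaperones, Hspa5 had 7401 UMIs or 1350 CPM in double knockout smooth muscle and 7021 UMIs or 820 CPM in the Apoe knockout. The ratio was 1.65 (1.59 to 1.70). Hsp90b1, which encodes GRP94, the Hsp90 of the ER, had 608 and 564 CPM, a ratio of 1.08 (1.03 to 1.13). Calr, the calcium-binding lectin chaperone calreticulin, had 506 and 698 CPM, a ratio of 0.725 (0.693 to 0.759), short of the 1.5-fold needed for a call. These 3 genes carry the printed ER stress element, and they were printed with their unequal ratios known. Their positions above, near and below a ratio of 1 are therefore a description. The part of the element in them was not tested.

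Pdia3 encodes ERp57, the isomerase that calreticulin recruits to glycoproteins. It had 451 CPM in double knockout smooth muscle and 240 CPM in the Apoe knockout, a ratio of 1.88 (1.77 to 1.99). The ratios of Calr and Pdia3 therefore lay on opposite sides of 1. That of Calr was not called, and it lay nearer to 1 in the groups of cells of like depth given below. Pdia4 encodes ERp72, a related isomerase, and had 46.3 and 39.6 CPM with a ratio of 1.17 (0.991 to 1.38). Sdf2l1 had 77 UMIs or 14.0 CPM and 38 UMIs or 4.44 CPM, a ratio of 3.16 (2.12 to 4.80), the largest of the 10 in smooth muscle and the one with the fewest UMIs.

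The transcription factors were also unequal. Ddit3 encodes CHOP, a factor induced by ATF4 that can promote cell death, and it had 83.5 CPM in the double knockout and 50.0 CPM in the Apoe knockout, a ratio of 1.67 (1.46 to 1.91). Xbp1 had 98.3 and 67.8 CPM, and its ratio of 1.45 (1.29 to 1.63) was just short of the rule. Atf4 had 146 and 186 CPM, a ratio of 0.780 (0.716 to 0.850). Herpud1, which gathers the ER-associated degradation (ERAD) machinery, had 145 and 96.2 CPM, a ratio of 1.51 (1.37 to 1.67). Herpud1 was just inside the rule, and its ratio was 1.44 among cells of at least 1000 UMIs with under 10% mitochondrial UMIs, where it was no longer called. In those cells Ddit3 had a ratio of 1.48 and was not called either. With cells thinned to 1000 UMIs each, Herpud1 had a ratio of 1.35 and was not called, while Xbp1 had 1.91 and was called higher.

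Smooth muscle cells were grouped by their own total, since the median was 769.5 UMIs in the double knockout and 4892 UMIs in the Apoe knockout. Hspa5 had ratios of 1.71 below 1000 UMIs, 1.51 from 1000 to under 2000, 1.78 from 2000 to under 4000 and 1.85 from 4000 to under 8000. Pdia3 had ratios of 2.85, 2.25, 2.23 and 2.08 in the same order of depth. Both genes were thus above 1.5 at each depth. Calr had ratios of 0.856, 0.963, 0.880 and 0.806, nearer to 1 than in all smooth muscle cells. In the Apoe knockout the Calr level was 523 CPM in cells of 1000 to under 2000 UMIs and 748 CPM in cells of at least 8000 UMIs, a depth at which the double knockout had 1 cell. Hsp90b1 had ratios of 1.31, 1.66, 1.15 and 1.11, and Ddit3 of 1.11, 1.58, 2.13 and 1.66. Atf4 had ratios of 1.38, 0.820, 1.00 and 0.771, on both sides of 1, so its ratio below 1 over all smooth muscle cells did not hold at each depth. Herpud1 had ratios of 2.09, 1.31, 1.43 and 1.37. The lowest group held 95 Apoe knockout cells with few UMIs, and Xbp1 had 0 UMIs there against 196 in the double knockout.

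**Figure D2:**
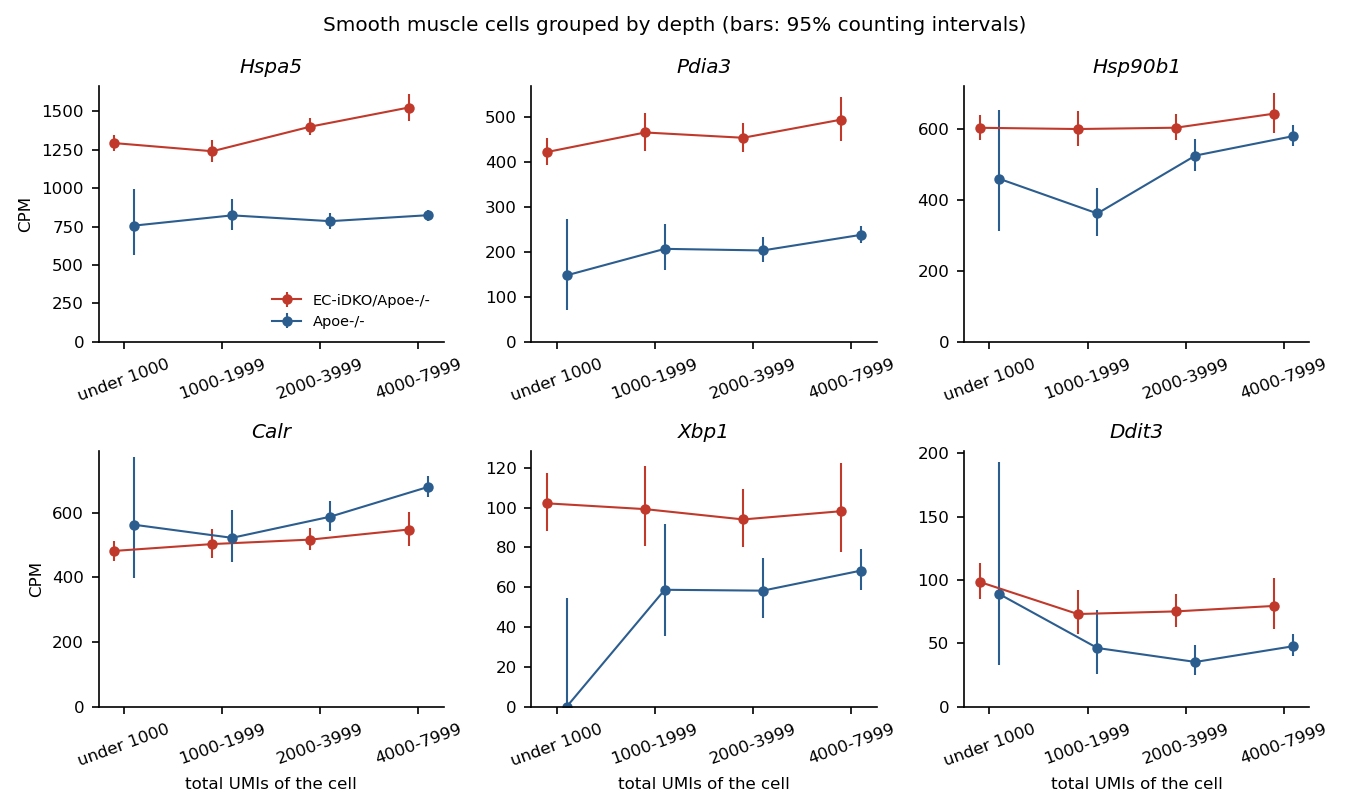
Level (CPM) of 6 genes in smooth muscle cells grouped by total UMIs per cell, double knockout in red left of Apoe knockout in blue; bars are exact 95% Poisson intervals. Hspa5 and Pdia3 stay separated at each depth, whereas Calr intervals overlap in the 3 shallowest groups.

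Endothelial cells, where the deletion was aimed, were read in the EC-class cells of cluster 9, with 287 double knockout and 96 Apoe knockout cells. BiP and both disulphide isomerases were higher in the double knockout, and the transcription factors and Herpud1 were not called. Of 9 genes with enough UMIs, 3 were higher and 0 lower, against 7.2% of 4109 genes higher and 8.79% lower. The median log2 ratio was 0.14 over the 9 genes and -0.02 over all genes. Hspa5 had 423 UMIs or 1681 CPM in the double knockout and 211 UMIs or 790 CPM in the Apoe knockout, a ratio of 2.13 (1.80 to 2.52). Pdia3 had 648 and 243 CPM, a ratio of 2.66 (1.98 to 3.60). Pdia4 had 18 and 5 UMIs, a ratio of 3.82 (1.37 to 13.2), and was no longer called in cells of at least 1000 UMIs with under 10% mitochondrial UMIs (58 in the double knockout), where the ratio was 3.42. In cells thinned to 1000 UMIs Hspa5 had a ratio of 2.52 and Pdia3 of 2.77, both called.

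Hsp90b1 in these endothelial cells had 830 CPM in the double knockout and 629 CPM in the Apoe knockout, a ratio of 1.32 (1.07 to 1.63). Calr had 540 and 626 CPM with a ratio of 0.864 (0.684 to 1.09). Xbp1, Atf4, Ddit3 and Herpud1 had 12 to 40 UMIs in each library, and their ratios of 1.11, 0.875, 0.606 and 1.10 had intervals that held 1. Over the alternatives Xbp1 ran from 1.07 to 2.39, Atf4 from 0.482 to 1.37 and Ddit3 from 0.543 to 1.06, none of them called. Such counts could not show a difference of 1.5-fold at this depth. Sdf2l1 had 3 UMIs in each library. The endothelial markers themselves summed to 4093 CPM in double knockout cluster 9 cells and 2240 CPM in the Apoe knockout. Contractile muscle markers summed to 32960 and 34669 CPM in the same cells, well above the endothelial sums. Macrophage markers, 5 of 7 at 0 in the double knockout, summed to 39.7 and 1948 CPM there, and fibroblast markers to 464.9 and 3412 CPM. Erythroid markers, 3 in the table, summed to 659.6 CPM in the double knockout and 0 in the Apoe knockout. The part of these makeup differences, and of smooth muscle RNA or mixed cells, in the chaperone ratios was not tested.

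The fibroblast class had 55 double knockout and 99 Apoe knockout cells, and its double knockout cells had the highest summed level of the 10 genes, 5958 CPM, against 4051 CPM in the Apoe knockout. Of 9 genes with enough UMIs, 5 were higher and 0 lower, against 6.26% of 4924 genes higher and 5.56% lower. The median log2 ratio was 1.06, against -0.04 over all genes. Hspa5 had 2547 CPM in the double knockout and 1211 CPM in the Apoe knockout, a ratio of 2.10 (1.82 to 2.43), and Pdia3 had 762 and 366 CPM, a ratio of 2.08 (1.59 to 2.71). The regulators Xbp1, Ddit3 and Herpud1 were the others called. Xbp1 had 149 and 60.7 CPM, Ddit3 177 and 66.2 CPM, and Herpud1 242 and 105 CPM, with ratios of 2.45, 2.67 and 2.30 that rest on 16, 19 and 26 double knockout UMIs. Hsp90b1, Calr, Pdia4 and Atf4 had ratios of 0.984, 0.842, 0.919 and 1.07. In cells of 1000 to under 3000 UMIs, a setting chosen after seeing the data, Hsp90b1 had a ratio of 1.91 and was called higher, and with cells weighted equally Atf4 had 1.74 and was called higher. Pdia4 ran from 0.835 to 4.36 over the alternatives. With cells thinned to 1000 UMIs each, Hspa5 and Pdia3 remained called, with ratios of 2.40 and 2.33, while Ddit3 and Herpud1, with ratios of 1.94 and 2.33, had intervals that held 1. Xbp1 had a ratio of 4.67 (1.25 to 21.2) there and was not called because it no longer had 20 UMIs. Fibroblast markers in this class summed to 827 CPM in the double knockout and 1783 CPM in the Apoe knockout, and pericyte markers to 2361 and 4682 CPM. Contractile markers summed to 28211 and 27333 CPM, well above both. The part of this makeup in the ratios of the class was not tested.

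In the modEC clusters the calls were fewer. Cluster 7 had 2 of 9 genes higher against 7.05% of all genes tested, Xbp1 with 112 CPM in the double knockout and 64.6 CPM in the Apoe knockout, and Herpud1 with 188 and 107 CPM. Cluster 8 had 2 of 10 higher against 8.04%, Pdia3 with 608 and 362 CPM and Sdf2l1 with 54.0 and 17.8 CPM. In cluster 10, 2 of 9 were higher against 7.7%, Pdia3 with 481 and 319 CPM and Ddit3 with 180 and 48.9 CPM on 12 and 29 UMIs. None of the 10 was called lower in these clusters, where 7.33%, 5.31% and 4.8% of all genes were. Hspa5 had ratios of 1.31, 1.45 and 1.31 there and was not called. In cells thinned to 1000 UMIs no gene was called in cluster 7, where Xbp1 and Herpud1 had ratios of 1.47 and 1.53, and Pdia3 alone remained in cluster 8, where Sdf2l1 had 2.27. In cluster 10, with 10 double knockout cells left, no gene was called and Pdia3 had 1.05. Fibroblast markers in cluster 8 summed to 6103 CPM in the double knockout and 23291 CPM in the Apoe knockout, and chondrocyte-like markers to 93.2 and 6318 CPM. In cluster 10 fibroblast markers summed to 1324 and 17898 CPM, chondrocyte-like markers to 30.1 and 23224 CPM, and contractile markers to 45829 and 26324 CPM. The same-numbered clusters thus differed in makeup between the libraries, and the part of this in the chaperone ratios was not tested.

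Among immune cells of cluster 13, with 53 double knockout and 144 Apoe knockout cells, 1 of the 10 genes was higher and 0 lower, against 8.33% and 6.1% of 5537 genes. That gene was Pdia3, with 635 CPM in the double knockout and 247 CPM in the Apoe knockout, a ratio of 2.57 (1.70 to 3.75). Thinned to 1000 UMIs, it had a ratio of 1.29 on 15 and 139 cells and was not called. Hspa5 had 1393 and 1283 CPM, and this ratio of 1.09 (0.837 to 1.39) was the smallest Hspa5 ratio of the populations compared. It ran from 0.923 by the median of ratios to 1.89 in cells of 1000 to under 3000 UMIs, where it was called higher. Contractile muscle markers in these cells summed to 41501 CPM in the double knockout and 14719 CPM in the Apoe knockout, and macrophage markers to 4588 and 17910 CPM. The part of smooth muscle RNA or of mixed cells in the levels of this cluster was not tested.

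Within deposited clusters, 18 had at least 50 cells in both libraries. Hspa5 had a ratio above 1 in 18 of 18 clusters, with the smallest of 1.09 in cluster 13 (0.923 by the median of ratios), a median of 1.63 and the largest of 2.03 in cluster 9. Pdia3 was above 1 in 18 of 18, from 1.20 in cluster 15 to 2.75 in cluster 9, with a median of 1.78. Cluster 9 thus had the largest ratio of both genes, but for Pdia3 it was close to the 2.70 of smooth muscle cluster 16. For Hspa5 the fibroblast class had 2.10, against 2.13 in the EC-class cells of cluster 9. The makeup of cluster 9 also differed between the libraries, as given before. Calr and Atf4 were below 1 in 18 of 18 clusters. Adipocyte markers in cluster 15 summed to 56472 CPM in the double knockout, and to 353 CPM with 4 of 5 markers at 0 in the Apoe knockout, and their part in its ratios was not tested. Calr ran from 0.401 in cluster 15 to 0.880 in cluster 9 (median 0.733), and Atf4 from 0.384 in cluster 16 to 0.993 in cluster 13 (median 0.857). These are clusters of the same 2 libraries and not replicates.

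For comparison, 2226 genes had at least 20 UMIs in each of the 18 clusters, 6 of the 10 described among them. Of these 2226, 4.18% were above 1 in every cluster and 3.86% below 1 in every cluster. The chaperone and stress genes thus divided, with Hspa5 and Pdia3 in the first set and Calr and Atf4 in the second. For cells of 1000 to under 3000 UMIs, Calr was above 1 in 4 clusters and Atf4 in 6. Hsp90b1 lay on both sides of 1, from 0.726 to 1.30, with 12 of 18 clusters above. Xbp1 was above 1 in 17 of 18 clusters, and Herpud1 in 15 of the 17 where it had enough UMIs. Ddit3 was above 1 in 13 of 17 and called higher in 9, 7 of them of smooth muscle, while 7.84% of all gene and cluster pairs were called higher. It was called lower in cluster 11, with 37.7 CPM in the double knockout and 70.4 CPM in the Apoe knockout (ratio 0.535), where 4.91% of all genes were lower, and higher in cluster 10 (ratio 3.60), where 7.44% of all genes were higher.

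**Figure D3:**
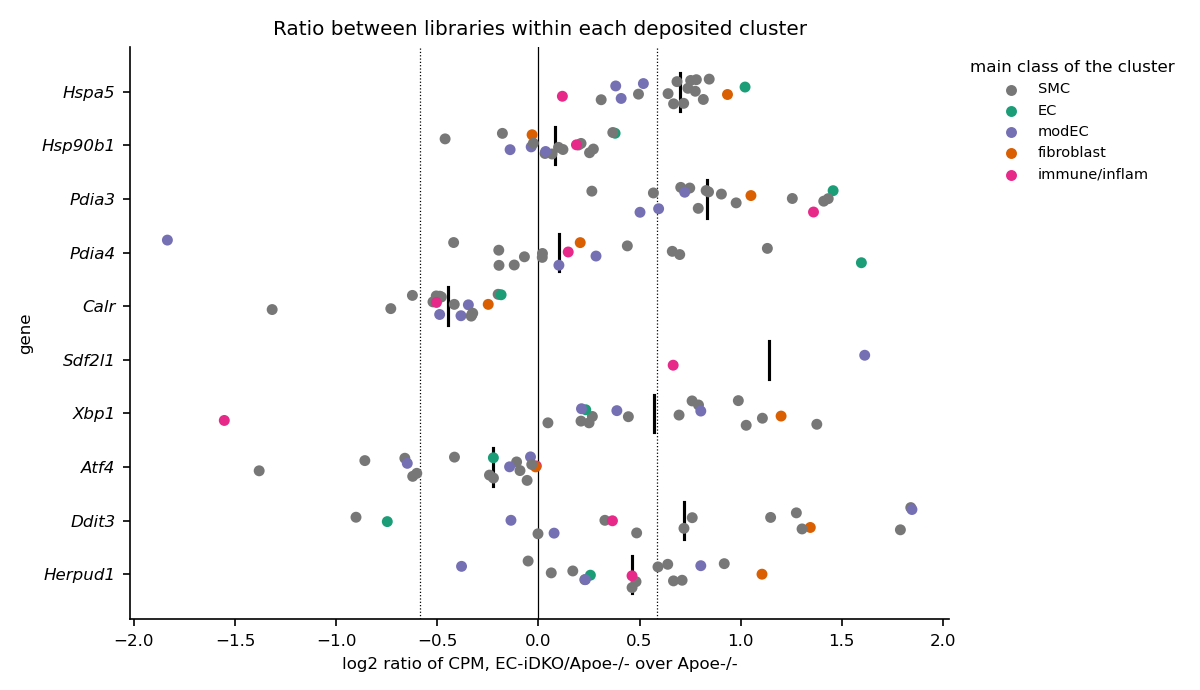
Log2 ratio of CPM, double knockout over Apoe knockout, for each gene with at least 20 UMIs in each of 18 deposited clusters; a point is 1 cluster, coloured by its main deposited class, the short black bar is the median and dotted lines mark 1.5-fold. Hspa5 and Pdia3 points all lie right of 0 and Calr and Atf4 points all lie left of it.

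A quotient of the UMIs of a gene pair, summed over the cells of a cluster, does not depend on the scaling to CPM. For each Calr UMI, double knockout clusters had 1.97 to 3.31 Hspa5 UMIs (median 2.60) and Apoe knockout clusters 0.988 to 1.69 (median 1.18). This pair was chosen after Hspa5 was seen above 1 and Calr below 1 in every cluster, so the gap restates those ratios and is a description. Pdia3 UMIs per Calr UMI were 0.742 to 1.17 in the double knockout (median 0.888) and 0.259 to 0.441 in the Apoe knockout (median 0.359). Hspa5 UMIs per Hsp90b1 UMI were 1.72 to 2.66 and 1.16 to 1.98, which overlapped. In smooth muscle cells of matched depth, Hspa5 per Calr was 2.68, 2.46, 2.71 and 2.78 in the double knockout from the shallowest group to the group of 4000 to under 8000 UMIs, and 1.34, 1.57, 1.33 and 1.21 in the Apoe knockout. A tag is counted once per molecule, but genes can differ in capture, so these quotients compare the libraries and are no ratio of molecules in the cell.

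**Figure D4:**
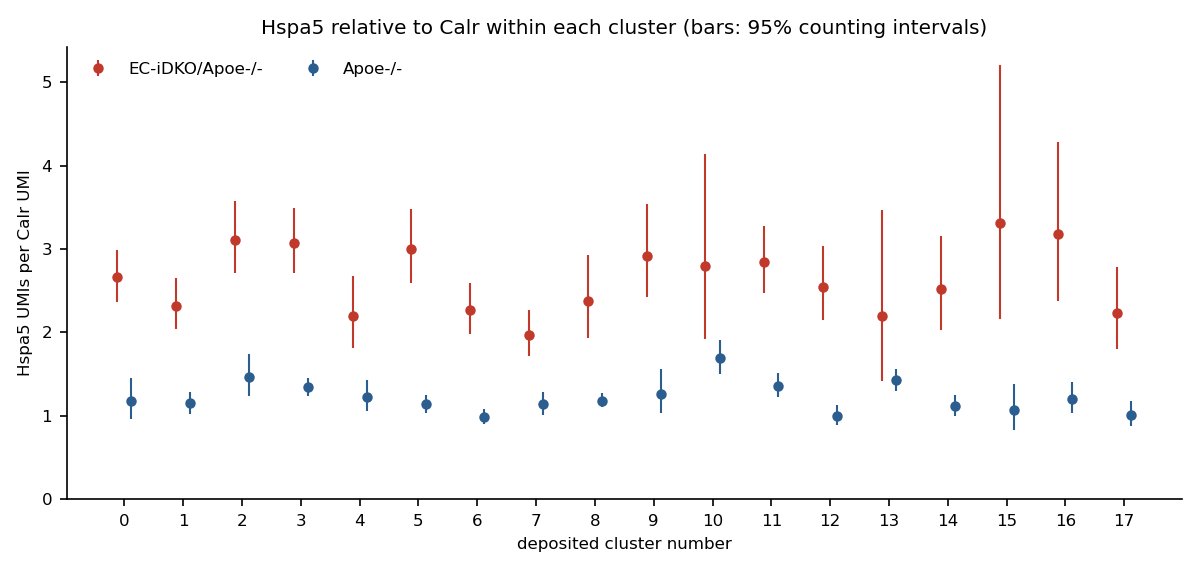
Hspa5 UMIs per Calr UMI in 18 deposited clusters, double knockout in red left of Apoe knockout in blue, with exact 95% counting intervals. The lowest double knockout value, 1.97 in cluster 7, lies above the highest Apoe knockout value, 1.69 in cluster 10.

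Other genes of the same machinery were read in smooth muscle from lists chosen by function. Of 12 further ER chaperones and cochaperones, 2 were higher and 0 lower, and 11 had a log2 ratio above 0 (median 0.37, against 0.03 over all genes). The shares over all genes in smooth muscle, 9.87% higher and 7.67% lower, are the background for this and the next lists, and 2 of 12 is near it. The 2 called were Creld2, an ER stress-inducible protein of the lumen, with 27.5 CPM in the double knockout and 15.3 CPM in the Apoe knockout, and Hyou1, the large Hsp70 of the ER that acts as a nucleotide exchange factor for BiP, with 39.0 and 23.2 CPM. Manf, a secreted ER stress protein, had a ratio of 1.42 and Dnajc3, a J-domain partner of BiP, of 1.38. Calnexin (Canx), the membrane-bound relative of calreticulin, had 345 and 334 CPM, a ratio of 1.03.

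Of 14 disulphide isomerases and oxidases, 2 were higher (Pdia5 and Erp29, with ratios of 1.90 and 1.61) and 1 lower (Txndc5, 0.639), with a median log2 ratio of 0.07, counts again near the shares over all genes. P4hb, the founding isomerase of the family, had a ratio of 0.876. Of 9 stress sensors and their relatives, 0 were higher and 1 was lower, Creb3l1, a membrane-bound factor that drives collagen genes, with 20.8 and 50.1 CPM. The sensors themselves were measured at low levels: Ern1, which encodes IRE1, had a ratio of 0.822 (0.591 to 1.13) and Eif2ak3, which encodes PERK, 1.18 (0.697 to 1.98). ERAD had 1 of 13 higher (Hspa13, 1.86), the translocon 2 of 15 lower (Sec62, 0.471, and Sec61g, 0.500), and N-glycosylation 1 higher and 1 lower of 12 (Ddost, 1.96, and Ost4, 0.640). Procollagen folding had 1 of 12 higher (P4ha2, 1.61), and Serpinh1, the collagen chaperone HSP47, had a ratio of 0.764.

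Among 17 targets of PERK and ATF4, 15 had enough UMIs, 7 were higher and 1 lower, against 9.87% and 7.67% of all genes, and the median log2 ratio was 0.63. Asns, asparagine synthetase, had 16 and 7 UMIs and a ratio of 3.57 (1.39 to 10.3). Ddit4, which restrains mTORC1, had 89.0 CPM in the double knockout and 28.8 CPM in the Apoe knockout, a ratio of 3.09. Sesn2, also a brake on mTORC1, had a ratio of 2.41. Ppp1r15a, which encodes the phosphatase subunit GADD34 that restarts translation, had 378 and 182 CPM, a ratio of 2.08. Atf3 was the gene called lower, with 686 and 1251 CPM, and it is also an immediate early gene. Atf4 itself, the factor upstream of this list, had the ratio of 0.780 given before, and ratios of 0.771 to 1.38 by depth.

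The list of cytosolic heat shock genes ran the other way, with 0 of 12 higher and 9 lower and a median log2 ratio of -0.79. Hspa1b had 266 CPM in double knockout smooth muscle and 1535 CPM in the Apoe knockout, Dnajb1 135 and 685 CPM, Hspa1a 455 and 1709 CPM, and Hsp90aa1 1460 and 3662 CPM. Of 14 immediate early genes, which tissue digestion can also raise, 3 were higher and 3 lower (median log2 ratio -0.23). The part of dissociation in the differences of chaperone genes was not tested, and with 1 library per genotype it cannot be told apart from genotype. Of 9 contractile genes none met the rule (0 higher, 0 lower), and their median log2 ratio was -0.01.

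**Figure D5:**
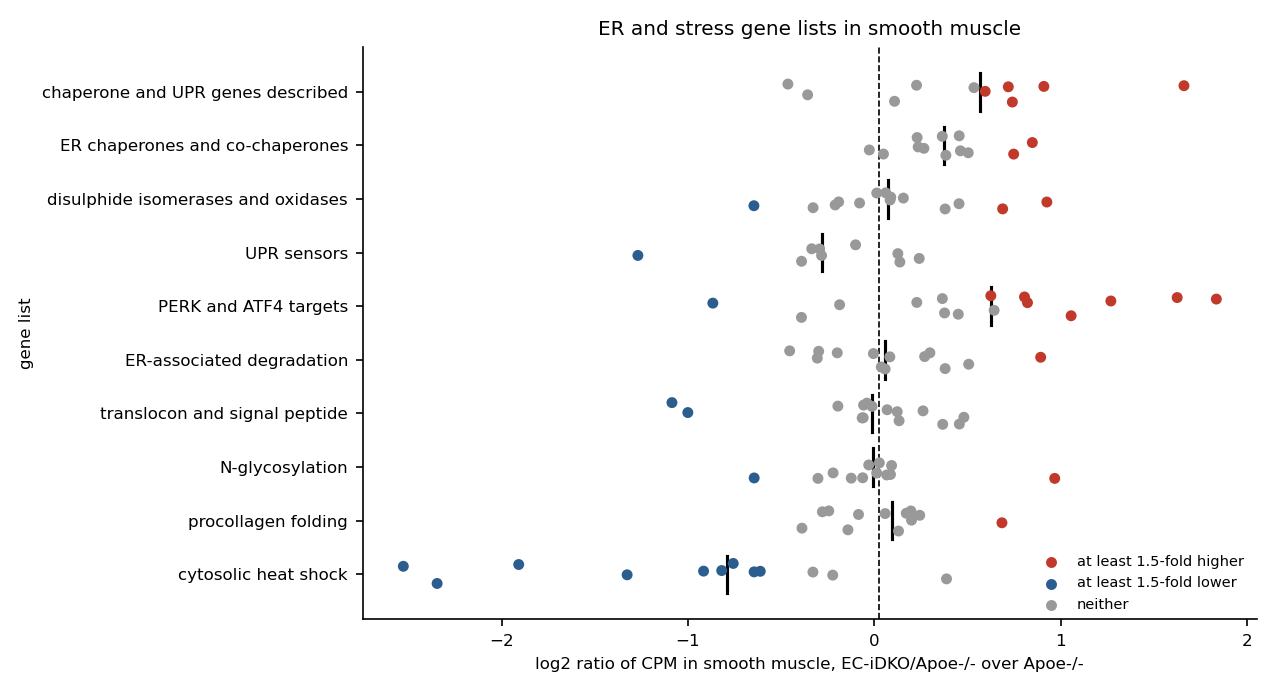
Log2 ratio of CPM in smooth muscle, double knockout over Apoe knockout, for genes with at least 20 UMIs in 10 functional lists; a point is 1 gene, red where called higher, blue where called lower and grey otherwise, the short black bar is the list median and the dashed line the median of all 11941 genes, 0.03. PERK and ATF4 targets hold 7 red points and cytosolic heat shock genes 9 blue ones.

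In the smaller populations some of the same lists had calls. In the cluster 9 endothelial cells 3 of 8 further ER chaperones were higher and 0 lower, against 7.2% and 8.79% of all genes: Dnajc3 with 219 CPM in the double knockout and 78.7 CPM in the Apoe knockout, Dnajb11 with 87.4 and 37.5 CPM, and Manf with 254 and 124 CPM. Their PERK and ATF4 targets had 3 higher and 1 lower of 6, with Ddit4 at a ratio of 3.62, Ppp1r15a at 1.98, Nupr1 at 1.95 and Atf3 at 0.584. In the fibroblast class 3 of 11 further chaperones were higher and 0 lower, against 6.26% and 5.56% of all genes, Hyou1, Manf and Dnajc3 with ratios of 2.96, 2.20 and 2.10. PERK and ATF4 targets had 3 of 8 higher and 0 lower there, with Ppp1r15a at 567 CPM in the double knockout and 116 CPM in the Apoe knockout. Of 7 plasma cell genes, 2 were in the table, and in smooth muscle they summed to 9.67 and 11.2 CPM.

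Over clusters, the genes whose level followed the summed level of Hspa5, Hsp90b1, Pdia3, Pdia4 and Calr most closely in both libraries were sought among 4567 genes. The measure was Pearson's r of log2(CPM + 10) over 19 clusters in the double knockout and 18 in the Apoe knockout, ranked by the lower of both. Manf came first, with r of 0.76 and 0.71. It was followed by Pmp22, Nucb2, Ank, Rbpj, Nbl1, Nav1 and Atp6ap2, for which the lower r was 0.71 to 0.65. Among the regulators described, Herpud1 ranked 147 (r of 0.50 and 0.41), Atf4 311, Ddit3 1586 and Xbp1 2254. The clusters of a library share its depth and its free RNA, so these values are a description.

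Over whole libraries, 3 of the 10 genes were higher and 0 lower, against 9.53% of 13257 genes higher and 13.1% lower. The libraries differ in their mix of cells, so the double knockout levels were also weighted to the class shares of UMIs in the Apoe knockout. Hspa5 had 1382 CPM in the double knockout, 1401 CPM after weighting, and 917 CPM in the Apoe knockout, which are ratios of 1.51 and 1.53. Pdia3 had ratios of 1.75 and 1.83, Calr of 0.702 and 0.740, and Ddit3 of 1.51 and 1.57. Sdf2l1, whose level was highest in the immune/inflam class, had ratios of 1.47 and 2.18. The sum of the 10 had ratios of 1.17 and 1.21.

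On GRCm38, Hspa5 lies at chr2:34771970-34777547 on the plus strand and Pdia3 at chr2:121413775-121438687 on the plus strand, where it overlaps Catsper2 on the other strand. Catsper2 had 4 UMIs in the double knockout and 11 in the Apoe knockout over whole libraries. Calr lies at chr8:84841850-84846934 on the minus strand, and Ddit3 at chr10:127290774-127296288 on the plus strand, where the annotation has Mars and Gm4189 on the other strand, with 146 and 234 UMIs for Mars and 1 and 10 for Gm4189. How reads in such overlaps were assigned was not given in the sources used here. Whether reads of Mars entered the Ddit3 counts was therefore not checked.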

How the data were processed

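The authors deposited counts of UMIs per cell and gene, the mitochondrial UMIs of each cell as a fraction, and class and cluster names of cells, which are of another kind ("other"). Per the submitters' processing notes, Cell Ranger and Seurat were used with mm10; their versions, the annotation and the strand setting are not stated there. The deposited cells had at least 495 UMIs each and carried cluster names, and doublets were not removed here. Each of 2428 Apoe knockout barcodes appeared in 2 copies with identical counts and was counted once (7917 distinct of 10345 entries).

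UMIs were summed per population and scaled to CPM. Levels carry exact Poisson intervals and ratios exact conditional binomial (Clopper-Pearson) intervals at 95%. They cover counting error only, not the spread between mice. Cells are not replicates, and with 1 library per genotype no p-value is given. A count of 0 was read against a floor of 3 UMIs. Fibroblast, smooth muscle, immune and other populations follow the deposited classes. Named genes are the 10 members and up to 4 genes per list with the largest ratios; Canx, P4hb, Ern1, Eif2ak3 and Atf3 were chosen after their values were seen. Members and lists were chosen with earlier results of these data known. The call rule was tested on simulated data. Tools were Python 3.11.15, NumPy 2.4.6, pandas 2.3.3 and SciPy 1.17.1. Alternatives covered cell filters, thinning to 1000 UMIs, equal weights, scaling and repeated barcodes.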

Additional observations from a re-analysis of the deposited data

Results flagged for a closer look

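Ddit3, which encodes CHOP, differed in direction between clusters. In cluster 11, of smooth muscle, it was lower in the double knockout, with a ratio of 0.535, whereas in cluster 10, of the modEC class, it was higher, with a ratio of 3.60. It was called higher in 9 clusters, 7 of them among the 11 smooth muscle clusters (cluster 15 left out), and lower in cluster 11 alone. Of all gene and cluster pairs 7.84% were called higher, and in cluster 11 4.91% of all genes were lower. In the modEC-class cells of cluster 10 Ddit3 had only 12 UMIs in the double knockout and 29 in the Apoe knockout. The makeup of that cluster differed between the libraries, as given before. The difference between clusters was not tested, since each cluster holds cells of the same 2 libraries.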

How the results depend on the processing

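No paired analysis was possible because each genotype had 1 library, and for the same reason no replicate could be left out. No called ratio changed its direction. Cells thinned to 1000 UMIs gave ratios of the summed genes of 1.30 in smooth muscle, 1.69 in endothelial cluster 9 and 1.70 in the fibroblast class, against 1.25, 1.52 and 1.47 with all cells. Cells weighted equally gave 1.28 in smooth muscle and 1.22 in cluster 7. The median of ratios gave 1.21 in smooth muscle, 0.985 in cluster 8, 0.926 in cluster 10, 0.939 in cluster 13 and 1.34 in the fibroblast class. Cells of at least 1000 UMIs with under 10% mitochondrial UMIs gave 0.968 in cluster 10. Cells of 1000 to under 3000 UMIs, chosen after seeing the data, gave 1.35 in smooth muscle, 1.34 in cluster 7, 1.28 in cluster 8, 1.44 in cluster 13 and 2.09 in the fibroblast class. With all cells, clusters 7, 8, 10 and 13 had 1.10, 1.13, 1.14 and 1.10. The cause of these shifts was not tested. Calls in smooth muscle were 5, against 1 at a ratio of at least 2 (3.65% of all genes higher, 3.57% lower) and 3 in cells of at least 1000 UMIs (10.1% and 6.49%). Of 18 clusters, 17 were above 1 for Hspa5 by the median of ratios and 17 for Pdia3 in cells of 1000 to under 3000 UMIs. Clusters above 1 for Calr were 0, against 1 thinned and 4 in cells of 1000 to under 3000 UMIs. For Atf4 they were 0, against 4 in cells of at least 1000 UMIs, 5 thinned, 4 with equal weights, 1 by the median of ratios and 6 in cells of 1000 to under 3000 UMIs. Over the populations, thinning kept 9 of 19 calls, the depth range 9 of 20 and the cell filter 15 of 20. Hspa5 in smooth muscle stayed between 1.59 and 1.66 and Pdia3 between 1.82 and 2.17 over 8 alternatives. Populations other than smooth muscle had 53 to 147 cells in the library with fewer, which limits what could be seen.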

Other observations

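Among the 19 double knockout clusters of at least 50 cells, Atf4 was highest in cluster 19, an EC-class cluster of 67 cells there, with 48 UMIs or 465 CPM (343 to 617). The next was cluster 13, with 266 CPM (142 to 455), and the lowest of 19 was cluster 16, with 77.6 CPM. Hspa5 in cluster 19 had 1794 CPM, second to the 2314 CPM of cluster 14. Ddit3 had its lowest level in cluster 19, 29.1 CPM, but on so few UMIs that this rank is uncertain. The Apoe knockout had too few cells of cluster 19 for a comparison. In cluster 15 of the double knockout, which mixes deposited classes, Xbp1 reached its highest level, 198 CPM (122 to 302), against 76.1 CPM in the Apoe knockout, and Hspa5 its lowest, 903 CPM. Adipocyte markers summed there to 56472 CPM in the double knockout and 353 CPM in the Apoe knockout, and their part in these levels was not tested.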
